A study of Mus musculus with 12 samples.

Results

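Interferon-stimulated and MHC class I genes were followed in mouse retina, as a list of 41 genes whose symbols were matched to the rows of the deposited count table. All 41 were found, each in a single row, among 36131 genes in the table. RNA sequencing had been done on retinas of 12 C57BL/6J wildtype mice at P18, 4 in each of 3 groups, in a model of oxygen-induced retinopathy. RA-PBS pups stayed in room air and received placebo (PBS). O2-PBS pups were kept in 75% O2 from P7 to P12 and received PBS. O2-IC100 pups had the same oxygen exposure and received IC100, a humanized antibody against the inflammasome adaptor ASC, at 10 µg/g. Injections were intraperitoneal on P12, P14 and P16 in all 3 groups. The paper, however, describes its PBS placebo as given into the vitreous, so the route of PBS in these animals is not certain. The comparator of the antibody was PBS, and no group received IC100 in room air.

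Interferons bind receptor chains that signal through JAK kinases to a complex of transcription factors that includes STAT2 and IRF9, which switches on a broad set of antiviral genes. IRF7 is itself induced by interferon and in turn raises type I interferon output. MHC class I molecules, made of a heavy chain and beta-2 microglobulin, show peptides to CD8 T cells; the peptides are cut by the immunoproteasome and carried by the TAP transporter. The healthy retina is an immune-privileged tissue in which class I is known to be low and microglia are the main resident immune cells.

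Libraries held 14907143 to 24438082 estimated counts, and rod markers took 3.81 to 4.74% of the counts in 11 of the 12 retinas. The library of O2-IC100 animal 10 stood apart: lens markers made up 57.7% of its counts (exact 95% interval 57.68 to 57.71, counting error only), and rods 0.319%. It was therefore left out of the primary fit, and its values are given beside those of the other animals. Lens RNA was also found in RA-PBS animals 2, 3 and 4, at 1.23, 4.4 and 1.38% of the counts, against 0.00055 to 0.0124% in RA-PBS animal 1 and the O2-PBS and other O2-IC100 animals. Y-linked genes summed to 223 to 324 CPM in RA-PBS animals 1 to 3 and animals 8, 9, 11 and 12, and to 4.04 to 9.85 CPM in the rest, so both sexes were present and unequally spread over the groups. Levels below are normalised read counts (CPM) on library sizes scaled by TMM, a factor per library that aligns most genes. The factor was 0.324 for animal 10 and 1.07 to 1.15 for the other 11, so that the levels of animal 10, set against theirs, are 3.43 times what plain library sizes would give. Statements on the order of animals therefore leave animal 10 aside unless they name it. CPM are not scaled for transcript length and serve to compare animals, not genes. A gene was called different at a fold change of at least 1.5, p under 0.05 and adjusted p under 0.1.

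The first comparison asked what the oxygen protocol changed under placebo. Of the 41 genes, 12 were higher in O2-PBS than in RA-PBS retinas and 0 were lower. That is 29.3% of the list, beside 6.27% of all 16688 tested genes called in either direction (4.09% higher and 2.18% lower). The list was chosen with earlier results of these data known. Its shares, here and below, are therefore a description and no test of this class of genes. The 12 were Irf7, Psmb9, Bst2, Oasl2, H2-K1, Ifi44, H2-D1, Tap1, Dtx3l, Ddx58, Lgals3bp and B2m. The median log2 fold change over the list was 0.49 against -0.01 over all tested genes, and 36 of 41 genes lay above 0, as did 48.8% of all tested genes. The 4 O2-PBS animals lay above all 4 RA-PBS animals for 14 of the 41 genes (34.1%), against 7.8% of all genes. In bulk tissue, more cells of a type and more RNA per cell cannot be told apart. The opposite arrangement was seen for 0 of the 41 and for 6.56% of all genes.

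**Figure D1:**
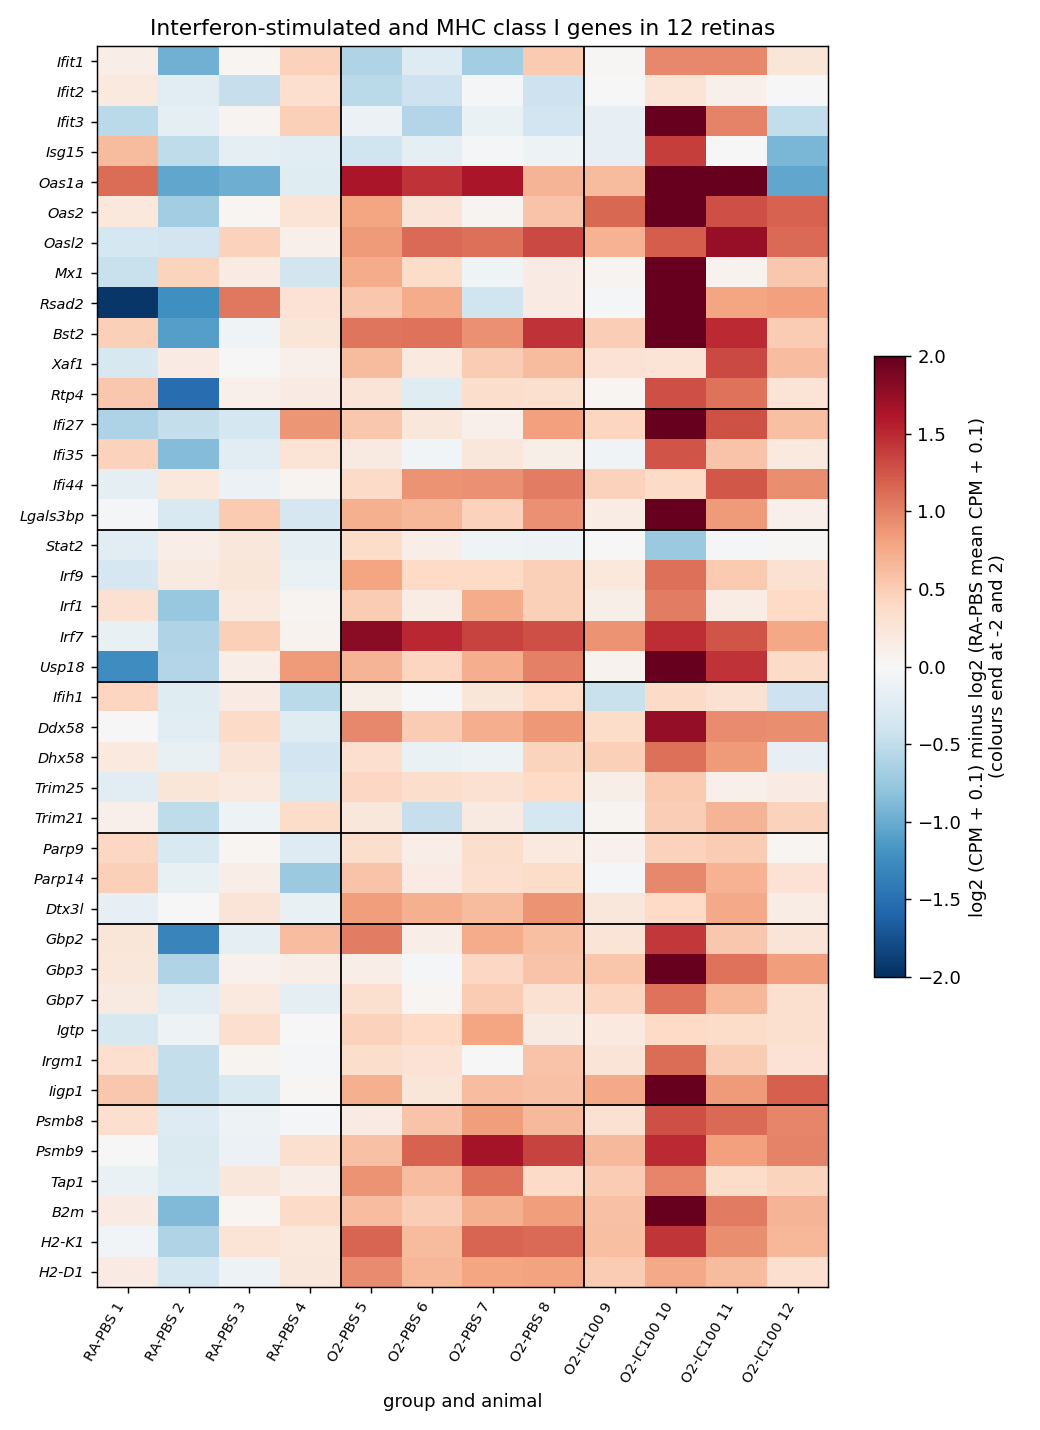
Colour shows each animal's level relative to the RA-PBS mean, as log2 (CPM + 0.1) minus the log2 of the RA-PBS mean + 0.1, for 41 genes (rows, grouped by role) in 12 retinas (columns). O2-PBS columns are redder than RA-PBS columns for Irf7, Oasl2, Bst2 and the MHC class I genes at the bottom, Ifit1 to Isg15 at the top are not, and O2-IC100 animal 10 is the reddest column on this TMM scale.

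Among the signalling and transcription genes, Irf7 showed the largest change that passed the test. Its level was 5.72, 4.15, 8.88 and 6.69 CPM in RA-PBS animals 1 to 4 and 22.5, 18.3, 16.4 and 15.7 CPM in O2-PBS animals 5 to 8. In O2-IC100 animals 9, 11 and 12 it was 12, 15.3 and 10.9 CPM. These 3 sets of animals did not overlap, with O2-IC100 between the others, while animal 10, at 17.9 CPM, lay within O2-PBS (5.81 CPM on plain library sizes). Irf7 was 2.87-fold higher in O2-PBS than in RA-PBS (log2 fold change 1.52, SE 0.21, 95% interval 1.08 to 1.96, adjusted p = 0.000701).

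The partners of the interferon complex moved less. Irf9, the DNA-binding subunit, was 15.6 ± 2.82 CPM in RA-PBS and 22.4 ± 3.03 in O2-PBS (mean ± SD, n = 4 each). These groups did not overlap, but the log2 fold change of 0.52 (SE 0.14, adjusted p = 0.0344) was under the fold threshold. Stat2 was 36.5, 46.7, 49.7 and 37 CPM in RA-PBS, 55, 46.8, 40.2 and 39.4 CPM in O2-PBS, and 42.4, 41.9 and 43 CPM in O2-IC100 animals 9, 11 and 12, with 25.4 CPM in animal 10. The groups overlapped throughout, and its log2 fold change between O2-PBS and RA-PBS was 0.09 (95% interval -0.17 to 0.36, adjusted p = 0.702). Irf1, a factor driven mainly by interferon gamma (0.49, adjusted p = 0.199), and Usp18, which removes ISG15 from proteins and dampens receptor signalling (0.77, adjusted p = 0.352), did not pass.

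MHC class I presentation was the role group with the most called genes, 5 of 6. H2-D1, a classical class I heavy chain, was 32.9, 22.9, 27.4 and 34.3 CPM in RA-PBS and 57, 46.8, 51.1 and 51.3 CPM in O2-PBS. O2-IC100 animals 9, 11 and 12 had 41.8, 45.8 and 37.2 CPM, below every O2-PBS animal and above every RA-PBS animal, and animal 10 had 49.9 CPM, within O2-PBS. The rise from RA-PBS to O2-PBS was 1.75-fold (log2 fold change 0.81, SE 0.12, 95% interval 0.54 to 1.08, adjusted p = 0.00183). H2-K1, the other classical heavy chain of this strain, was 13.8, 9.42, 17.5 and 16.7 CPM in RA-PBS and 32.4, 22.4, 32.5 and 31.7 CPM in O2-PBS. Animal 6 was the low one in O2-PBS, yet still above every RA-PBS animal. The fold change was 2.07 (log2 1.05, SE 0.18, 95% interval 0.66 to 1.44, adjusted p = 0.00331). In O2-IC100 animals 9, 11 and 12, H2-K1 was 21.8, 27.6 and 22.8 CPM, a range that met the lower end of O2-PBS, and in animal 10 it was 39.1 CPM.

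Light chain and peptide supply moved in the same direction. B2m, the light chain, was 22.4, 10.8, 20.6 and 26.1 CPM in RA-PBS, 30.7, 28.2, 32.8 and 35.9 CPM in O2-PBS, and 30.1, 41 and 32 CPM in O2-IC100 animals 9, 11 and 12 (110 in animal 10). All oxygen-exposed animals were above all room air animals, with a log2 fold change of 0.68 (SE 0.21, adjusted p = 0.066) between O2-PBS and RA-PBS. Psmb9, an inducible catalytic subunit of the immunoproteasome, was 0.617, 0.483, 0.555 and 0.79 CPM in RA-PBS, 0.965, 1.51, 2.15 and 1.72 CPM in O2-PBS, and 1.01, 1.15 and 1.32 CPM in O2-IC100 animals 9, 11 and 12 (1.89 in animal 10). No oxygen-exposed animal reached down to the room air range, and the log2 fold change was 1.37 (SE 0.33, adjusted p = 0.0223). Tap1, a chain of the peptide transporter, was 2.52, 2.27, 3.27 and 3.05 CPM in RA-PBS, 5.25, 4.33, 5.99 and 3.66 CPM in O2-PBS, and 3.99, 3.6 and 3.82 CPM in the same 3 O2-IC100 animals (5.55 in animal 10). Here too the room air animals were lowest (log2 fold change 0.79, SE 0.2, adjusted p = 0.0263). Psmb8, the sister subunit of Psmb9, had a log2 fold change of 0.59 and missed the test (adjusted p = 0.15).

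The promoters of both heavy chain genes hold the same near-identical stretch, shown because these genes were among the most stable calls. The sequences are RefSeq promoter windows in GRCm38.p6, which run from 250 bases before to 50 bases after the annotated start; only bases before the start are printed, and capitals mark the enhancer A letters GGGGATTCC, a classical site for NF-kB proteins. H2-K1 is read from chr17:34000420-34000488 on the minus strand and H2-D1 from chr17:35262893-35262961 on the plus strand.
H2-K1: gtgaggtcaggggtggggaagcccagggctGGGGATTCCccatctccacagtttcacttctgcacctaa
H2-D1: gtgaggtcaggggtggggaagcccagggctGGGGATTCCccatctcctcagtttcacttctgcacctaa
Over 69 bases, counted from 1 at the printed 5′ end of H2-K1, the stretches differ by 1 substitution, A48T. Searched on both strands, GGGGATTCC was found in the windows of 0.3% of 27025 genes and, within the list, in these 2 of the 32 genes that had a window. The likeness of the heavy chain genes extends to the Q and T region genes, so the estimated counts of each rest on how Kallisto divided shared reads.

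Tap1 and Psmb9, both called, lie head to head with starts 226 bases apart, and the stretch between the starts serves as promoter for both. It is given at chr17:34187331-34187555 on the plus strand, in the reading direction of Tap1, with the GC box, GGGCGG read on the minus strand, in capitals.
Tap1-Psmb9: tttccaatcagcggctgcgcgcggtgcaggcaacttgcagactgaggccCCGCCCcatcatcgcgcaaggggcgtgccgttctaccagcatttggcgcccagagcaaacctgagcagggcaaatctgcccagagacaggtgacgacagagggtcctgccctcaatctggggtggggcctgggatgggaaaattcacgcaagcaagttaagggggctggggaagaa
A GC box was present in the windows of 38.2% of all genes.

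**Figure D2:**
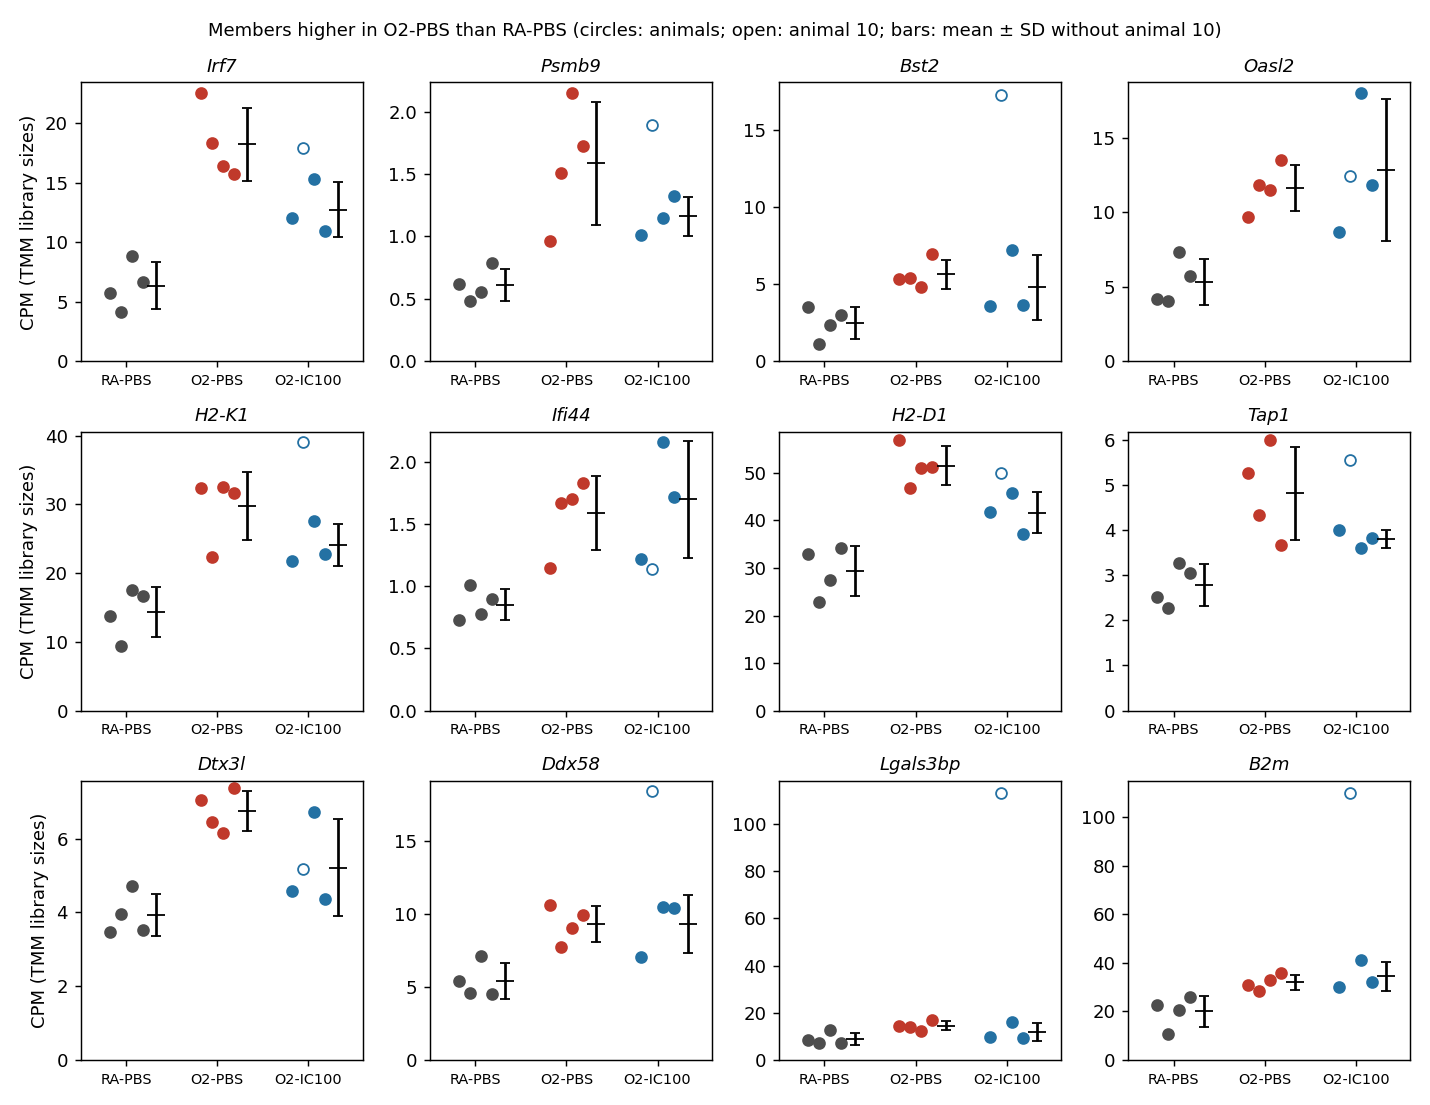
Levels in CPM of the 12 genes that were higher in O2-PBS than in RA-PBS, 1 circle per animal, with mean ± SD bars that leave out the open circle (O2-IC100 animal 10). O2-PBS circles lie above all RA-PBS circles in every panel except Lgals3bp, and O2-IC100 circles of Irf7 and H2-D1 other than animal 10 lie between both PBS groups.

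Of the 12 IFIT proteins and antiviral effectors, 2 were higher in O2-PBS. Oasl2, an OAS family protein with a ubiquitin-like tail, was 4.15, 4.06, 7.33 and 5.74 CPM in RA-PBS, 9.71, 11.8, 11.5 and 13.5 CPM in O2-PBS, and 8.68, 18 and 11.8 CPM in O2-IC100 animals 9, 11 and 12 (12.4 in animal 10). All oxygen-exposed animals were above room air, and the O2-PBS rise was 2.19-fold (log2 fold change 1.13, SE 0.24, adjusted p = 0.0107). Bst2, or tetherin, holds budding virions at the cell surface. Its level was 3.53, 1.11, 2.39 and 3 CPM in RA-PBS, 5.37, 5.42, 4.81 and 6.98 CPM in O2-PBS, and 3.57, 7.25 and 3.63 CPM in O2-IC100 animals 9, 11 and 12 (17.3 in animal 10). Animals 9 and 12 were just above the highest room air animal, while animal 11 was above all of O2-PBS. The log2 fold change between O2-PBS and RA-PBS was 1.17 (SE 0.32, adjusted p = 0.0414).

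Ifit1, Ifit2, Ifit3 and Isg15 were among the uncalled genes of this role group. Ifit2 was 14.5, 10.8, 9.16 and 16 CPM in RA-PBS, 8.68, 9.44, 12.3 and 9.42 CPM in O2-PBS, and 12.5, 13.5 and 12.7 CPM in O2-IC100 animals 9, 11 and 12 (15.3 in animal 10). The PBS groups overlapped, with a log2 fold change of -0.34 (95% interval -0.72 to 0.03, adjusted p = 0.279). Ifit1 (-0.18, 95% interval -1 to 0.64), Ifit3 (-0.30, -0.96 to 0.36) and Isg15 (-0.18, -0.84 to 0.48), the ubiquitin-like modifier, also had means below room air, and none passed. For Ifit2 the interval leaves out a 1.5-fold rise, as it does for Ifit3 and Isg15 (upper bounds 0.03, 0.36 and 0.48 on the log2 scale, where 1.5-fold is 0.585), but not for Ifit1. Mx1, which traps viral nucleocapsids (0.34), Rsad2, or viperin (0.36), Rtp4 (0.21) and Oas2 (0.54) had positive values that did not pass. Oas1a had the widest interval (0 to 3.52) and is low, with 1 count in its lowest library. Xaf1, a pro-apoptotic gene, did not overlap between the groups but had an adjusted p of 0.205. The IFIT, OAS and Gbp genes each have close paralogs, so their estimated counts are uncertain to the extent that reads were shared.

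The interferon-stimulated response element was searched as the letters GAAANNGAA on both strands, and only exact matches to these letters are counted as the element here. It was present in the windows of 9.76% of 27025 genes and of 18 of the 32 listed genes with a window (56.2%). All 12 called genes had a window, and 4 matched these letters (B2m, Bst2, Ddx58 and Ifi44). Of the 20 others with a window, 14 matched: Ifit1, Ifit3, Isg15, Oas1a, Rsad2, Stat2, Ifih1, Trim25, Trim21, Gbp2, Gbp3, Gbp7, Igtp and Irgm1. H2-K1 and H2-D1 did not match. Their stretches printed above hold, after enhancer A and on the other strand, the same pattern with its longer and shorter ends exchanged. That form was not counted, so these numbers cannot tell whether called genes hold the element less often. The gamma-activated site TTCNNNGAA was in 8 of 32 windows (25%) and in those of 9.55% of all genes, with 1 called gene (Bst2) among the 8. Such matches are a description of letters and not of binding. Stretches of called and uncalled genes are shown side by side, capitals marking the element, which can overlap itself: B2m at chr2:122147518-122147586 (plus strand), Bst2 at chr8:71537558-71537632 (minus), Ifit1 at chr19:34640750-34640843 (plus), Isg15 at chr4:156200846-156200926 (minus) and Rsad2 at chr12:26456533-26456601 (minus). B2m and Bst2 were called and the other three were not.
B2m: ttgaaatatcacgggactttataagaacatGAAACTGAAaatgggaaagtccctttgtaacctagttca
Bst2: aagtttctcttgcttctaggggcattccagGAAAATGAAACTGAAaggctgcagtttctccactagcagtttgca
Ifit1: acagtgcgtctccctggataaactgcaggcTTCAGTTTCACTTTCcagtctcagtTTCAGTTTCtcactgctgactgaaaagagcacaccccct
Isg15: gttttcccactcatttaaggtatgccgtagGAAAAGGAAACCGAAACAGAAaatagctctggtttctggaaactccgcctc
Rsad2: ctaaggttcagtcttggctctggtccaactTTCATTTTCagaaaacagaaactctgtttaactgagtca
The longest run of overlapping elements printed here is in Isg15, whose mean was 2.03 ± 0.798 CPM in RA-PBS and 1.79 ± 0.204 CPM in O2-PBS (SD, n = 4 each).

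Among RNA sensors and ubiquitin ligases, 1 of 5 passed. Ddx58, which encodes the RNA sensor RIG-I, was 5.39, 4.59, 7.11 and 4.53 CPM in RA-PBS, 10.6, 7.72, 9.05 and 9.92 CPM in O2-PBS, and 7.03, 10.5 and 10.4 CPM in O2-IC100 animals 9, 11 and 12 (18.4 in animal 10). O2-PBS lay above room air throughout (log2 fold change 0.78, SE 0.19, adjusted p = 0.0193), and O2-IC100 animal 9 fell just inside the room air range. Trim25, a ligase that acts with RIG-I, was 24.5, 33.8, 32.6 and 23 CPM in RA-PBS, 38.2, 36.4, 35.3 and 37.6 CPM in O2-PBS, and 30.9, 30.5 and 32.1 CPM in O2-IC100 animals 9, 11 and 12 (41.2 in animal 10). The PBS groups did not overlap, but the log2 fold change of 0.37 (SE 0.11, adjusted p = 0.0603) was under the fold threshold. The sensor Ifih1, or MDA5 (0.20), its relative Dhx58 (0.16) and the antibody receptor and ligase Trim21 (-0.07) did not pass.

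Dtx3l, a ubiquitin ligase that pairs with Parp9, was 3.48, 3.96, 4.72 and 3.53 CPM in RA-PBS and 7.05, 6.46, 6.16 and 7.37 CPM in O2-PBS. O2-IC100 animals 9, 11 and 12 had 4.58, 6.72 and 4.36 CPM, the first and last inside the room air range, and animal 10 had 5.18 CPM. The log2 fold change between O2-PBS and RA-PBS was 0.79 (SE 0.18, adjusted p = 0.0153). Its partner Parp9 was 7.63, 4.59, 5.88 and 4.79 CPM in RA-PBS, 7.3, 6.31, 7.29 and 6.54 CPM in O2-PBS, and 6.07, 8.21 and 5.88 CPM in those O2-IC100 animals (7.95 in animal 10). These groups overlapped (log2 fold change 0.26, adjusted p = 0.447), as they did for Parp14, another mono-ADP-ribosyltransferase (0.37, adjusted p = 0.401).

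Among the other interferon-stimulated genes, Ifi44 and Lgals3bp were called. Ifi44 was 0.729, 1.01, 0.777 and 0.895 CPM in RA-PBS, 1.15, 1.67, 1.7 and 1.83 CPM in O2-PBS, and 1.22, 2.16 and 1.72 CPM in O2-IC100 animals 9, 11 and 12 (1.14 in animal 10). All oxygen-exposed animals were above room air, with a log2 fold change of 0.89 (SE 0.29, adjusted p = 0.0821) for O2-PBS. Lgals3bp, a secreted glycoprotein that binds galectin 3, was 8.58, 7.1, 12.7 and 7 CPM in RA-PBS, 14.5, 14.1, 12.2 and 16.8 CPM in O2-PBS, and 9.8, 16.1 and 9.46 CPM in the same O2-IC100 animals (113 in animal 10). It was the called gene whose PBS groups overlapped, by RA-PBS animal 3 and O2-PBS animal 7 (log2 fold change 0.71, SE 0.21, adjusted p = 0.0581). Ifi27 (0.46) and Ifi35 (0.13) did not pass.

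Interferon-inducible GTPases, which attack the vacuoles of intracellular parasites and bacteria, gave 0 calls of 6, although all 6 had log2 fold changes above 0 (0.30 to 0.68) and 1, Igtp, had an unadjusted p under 0.05. Gbp7 was 6.9, 5.17, 6.94 and 5.27 CPM in RA-PBS, 7.6, 6.26, 8.71 and 7.48 CPM in O2-PBS, and 8.25, 9.7 and 7.6 CPM in O2-IC100 animals 9, 11 and 12 (13 in animal 10). Its PBS groups overlapped by O2-PBS animal 6 (log2 fold change 0.31, SE 0.16, adjusted p = 0.288). The values of Gbp2, Gbp3, Irgm1 and Iigp1 were 0.68, 0.30, 0.32 and 0.60, with adjusted p from 0.277 to 0.479.

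With animal 10 kept in the fit, the spread shared by all groups widened and 2 genes of the list, Irf7 (adjusted p = 0.0285) and H2-D1 (adjusted p = 0.0417), were called between O2-PBS and RA-PBS, beside 0.807% of all 16489 genes tested. Their log2 fold changes in this comparison were the same to the second decimal as without it. DESeq2 called the same 12 genes without animal 10, beside 6.65% of the genes it tested, and 7 with it, beside 2.34%. RA-PBS animals 2, 3 and 4, which hold lens RNA, were also doubted, and without them 17 genes were higher and 1, Isg15, was lower, 10 of them among the 12, beside 24.3% of all genes tested there against 6.27% with these animals. This fit has a single room air animal, assumed to vary like the others.

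The second comparison asked what IC100 changed after oxygen. Between O2-IC100 (animals 9, 11 and 12) and O2-PBS, edgeR called 0 of the 41 genes, beside 0.947% of all tested genes. At an unadjusted p under 0.05 there were 4, beside 19.2% of all genes. DESeq2 called 0 of the list without animal 10, beside 395 genes in all, and 0 with it, beside 113 genes. Log2 fold changes were above 0 for 21 of 41 genes, beside 50.5% of all genes, with a median of 0.02. The groups did not overlap for 3 genes higher in O2-IC100 (Ifit2, Oas2 and Iigp1) and 3 lower (Irf7, Trim25 and H2-D1), that is 7.32% each way, beside 18 and 17.3% of all genes. With animal 10 edgeR also called 0 (0 of all 16489 genes). In that fit 6 of the 41 were at an unadjusted p under 0.05, beside 2784 of all 16489 genes. Log2 fold changes were above 0 for 29 of the 41, beside 8319 of all genes. On the TMM scale Irf7, Trim25 and H2-D1 then overlapped between the groups.

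Of the 4, Irf7 was 12.7 ± 2.28 CPM in O2-IC100 (SD, n = 3) against 18.2 ± 3.05 in O2-PBS (n = 4), a log2 fold change of -0.50 (95% interval -0.96 to -0.04, adjusted p = 0.236). H2-D1 was 41.6 ± 4.29 against 51.5 ± 4.19 CPM (-0.29, 95% interval -0.58 to -0.01, adjusted p = 0.254). Gbp3 and Oas2 had values in the other direction. Gbp3 was 5.28 ± 0.989 against 3.59 ± 0.683 CPM (0.57, 95% interval 0.06 to 1.09, adjusted p = 0.23), and Oas2 0.998 ± 0.0513 against 0.55 ± 0.146 CPM (0.87, 95% interval 0.01 to 1.74, adjusted p = 0.258). Of the 12 genes that had been higher in O2-PBS, 8 had a negative log2 fold change here, over a range of -0.50 to 0.16. Both comparisons share the O2-PBS animals, so a gene that was high in these animals tends to show a rise in the first and a fall in the second. Intervals were wide: for 16 of 41 genes a 1.5-fold fall, and for 20 a 1.5-fold rise, lay within the 95% interval.

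**Figure D3:**
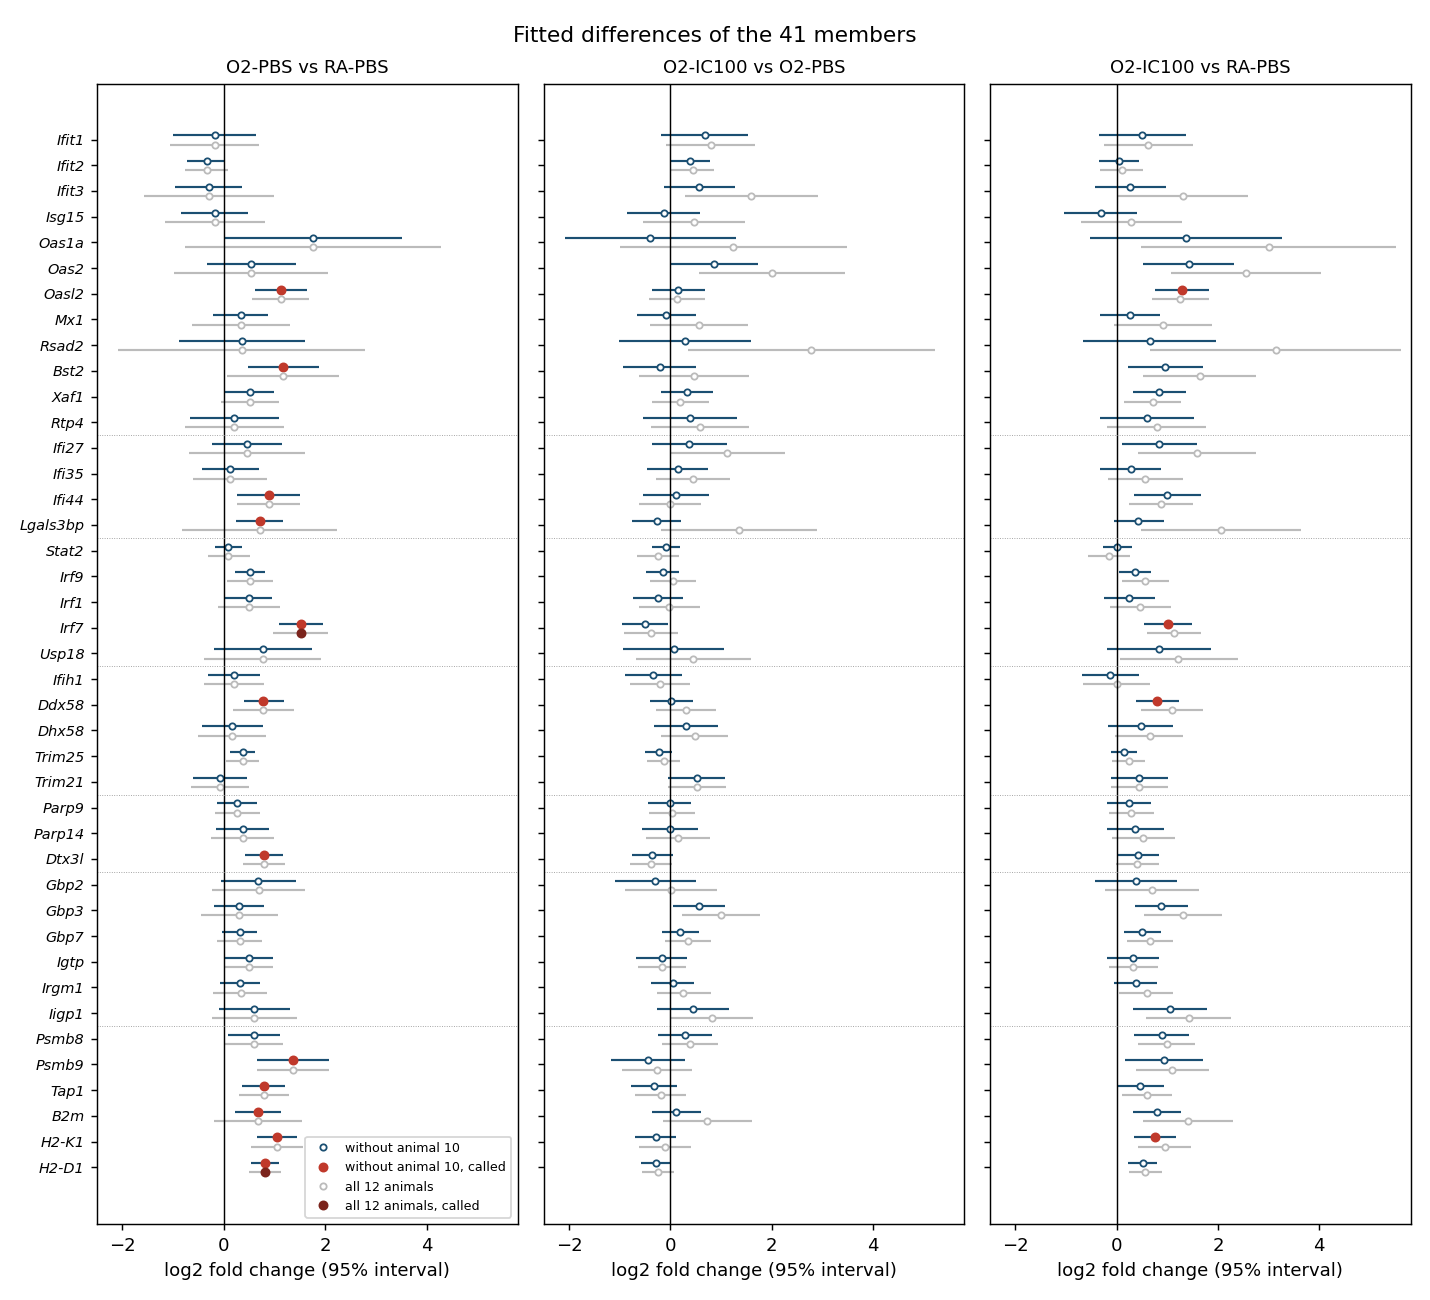
Log2 fold changes with 95% intervals of the 41 genes in the 3 comparisons, without animal 10 (upper point of each pair) and with all 12 animals (lower, grey); filled red points passed the thresholds. The 12 filled points without animal 10 at the left are all above 0, the middle panel has none, and the right panel has 4.

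The third comparison asked what still differed from room air under IC100. Without animal 10, 4 of 41 genes were higher in O2-IC100 than in RA-PBS (9.76%) and 0 were lower, beside 0.947% and 0.617% of all tested genes. They were Oasl2 (log2 fold change 1.29, SE 0.25, adjusted p = 0.0381), Irf7 (1.02, SE 0.22, adjusted p = 0.0549), Ddx58 (0.80, SE 0.2, adjusted p = 0.0752) and H2-K1 (0.76, SE 0.19, adjusted p = 0.081), each also among the 12. H2-D1 (0.52, SE 0.13, adjusted p = 0.0848) was under the fold threshold. The list's median was 0.50 against 0.02 over all tested genes, and 39 of 41 genes were above 0 (52.5% of all genes), Isg15 and Ifih1 being the exceptions. For 14 genes (34.1%) all 3 O2-IC100 animals lay above all room air animals, beside 5.18% of all genes. The 14 included Oas2 (1.42, adjusted p = 0.124), Xaf1 (0.84, adjusted p = 0.115), Gbp3 (0.88, adjusted p = 0.104) and B2m (0.80, adjusted p = 0.11), which missed the test. Both this and the first comparison use the same RA-PBS animals. The 4 calls depended on single animals: without O2-IC100 animal 11, or without animal 12, there were 0, and without RA-PBS animal 4 there were 16. The share of all tested genes called moved in the same way, to 0.183, 0.124 and 5.57%, from 1.56% in the fit with all 11 animals. With all 12 animals there were 0 by edgeR (0 of 16489 genes; 24 of 41 at an unadjusted p under 0.05, beside 13.2% of all genes) and 10 by DESeq2, beside 1.66% of the genes it tested.

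Animals of a group differed across many of these genes together. RA-PBS animal 2 was the lowest of its group for 23 of 41 genes, against 25.2% of all genes. With animal 10 included, on the TMM scale, it was the lowest of all 12 animals for 22, against 11.2%. Animal 10 itself took the lowest place for 1 of the 41 and for 39.1% of all genes there. On plain library sizes animal 10 was the lowest for 18 of the 41, so the ranking among all 12 depends on the scaling. O2-PBS animal 6 was the lowest of its group for 20 (24.7% of all genes). In O2-IC100, leaving aside animal 10, animal 11 was the highest for 33 of 41 genes (35.5% of all genes) and animal 9 the lowest for 27 (29.9%). Without animal 11, the number of listed genes above 0 between O2-IC100 and O2-PBS went from 21 to 12. The median log2 fold change over all tested genes was 0 in both fits.

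In the lens-rich library of O2-IC100 animal 10, the standing of the listed genes depended on the scaling. On TMM library sizes it was the highest of all 12 animals for 26 of 41 genes, beside 35.5% of all genes, and the lowest for 1, Stat2. On plain library sizes, tried after seeing the data, it was the highest for 4 (7.33% of all genes) and the lowest for 18 (78.7%). The 4 that were highest on both scales were Rsad2, Oas2, Oas1a and Lgals3bp. Rsad2 was 29.4 CPM there and at most 2.05 CPM in the other 11 animals (9.53 and 2.2 CPM on plain library sizes). Oas2 was 6.44 CPM against at most 1.06 (2.09 and 1.18 on plain sizes), Oas1a 5.68 against 1.15 (1.84 and 1.28), and Lgals3bp 113 against 16.8 (36.6 and 18.9). Ifit3, Ifi27 and B2m were highest on the TMM scale only, at 37.1, 31.6 and 110 CPM against at most 11.5, 11.3 and 41, whereas on plain sizes they were 12, 10.2 and 35.5 against at most 12.8, 12.6 and 45.7. Against the mean of animals 9, 11 and 12 the median ratio over the list was 1.63 on TMM sizes and 0.466 on plain sizes, beside 0.924 and 0.265 over all tested genes. Microglia markers took 0.0196% of the counts in this library and 0.016, 0.0191 and 0.0196% in animals 9, 11 and 12, which on the TMM scale is 606 against 141 to 171 CPM. Cd74 and H2-Aa of MHC class II were 55.5 and 13.1 CPM against means of 1.32 and 0.317 in the other 3, on the TMM scale. The part of these cells, of the lens tissue and of the small retinal share in the levels was not tested.

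Interferon transcripts themselves were close to absent. Over all 12 libraries Ifna1, Ifna4, Ifnb1, Ifne, Ifnl2 and Ifnl3 had 0 counts, Ifna2 and Ifnk 1 each, Ifng 3 and Ifnz 12, and none entered the test. In a library, 0 counts allow up to 3, so low levels were not detectable at this depth. Receptor chains and kinases were well measured. Ifnar1 and Ifnar2 were 59.3 and 8.4 CPM in RA-PBS and 68.4 and 9.15 in O2-PBS, Ifngr1 and Ifngr2 31 and 24.7 against 31.6 and 23.1, and 0 of 8 tested chains and kinases were called in any of the 3 comparisons. Ifnlr1, of the lambda receptor, was too low to be tested.

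Between RA-PBS and O2-PBS, 3 of 6 STAT and IRF genes outside the list were higher, namely Stat3 (log2 fold change 1.17), which serves LIF and IL-6 family signals, and Irf8 (1.10) and Irf5 (0.84), factors of myeloid cells. Of 9 tested nucleic acid sensing genes, Sting1, the adaptor of cytosolic DNA sensing, was higher (1.56, adjusted p = 0.00153). Of 6 negative regulators, Socs3, a STAT3 target, was higher (2.10). Stat3 was the gene of these lists that was lower in O2-IC100 than in O2-PBS, at 75.2 against 154 CPM (-1.02, adjusted p = 0.0659). In the third comparison Tlr7, an endosomal RNA sensor, was higher (1.88, adjusted p = 0.0857).

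Genes outside the list were read in the same way. Of 38 tested interferon-stimulated genes outside the list, 6 were higher in O2-PBS than in RA-PBS, the membrane proteins Ifitm1 (1.70), Ifitm3 (1.34) and Ifitm2 (0.95) and Lgals9 (1.29), Nmi (0.95) and Gbp9 (0.88), and 1, Cmpk2, was lower (-0.62). Of 17 other class I presentation genes, 6 were higher and 0 lower: H2-Q7 (1.47, adjusted p = 0.000275), H2-T23 (1.08), H2-Q6 (1.06), H2-Q4 (1.05), H2-M3 (1.00) and Tap2 (0.67), the partner chain of Tap1. Of 6 tested MHC class II genes H2-Ab1 was higher (2.05, adjusted p = 0.00245), at 1.09 against 4.53 CPM. Of the interferon-induced chemokines, Cxcl9, Cxcl10 and Cxcl11 averaged at most 0.386 CPM in any group without animal 10 and were not tested; Cxcl16 was tested and not called. None of these genes was called between O2-IC100 and O2-PBS. Against room air, Nmi (1.24), H2-Q7 (0.79) and H2-Ab1 (1.69) were higher in O2-IC100. Animal 10 was left out of these calls too. In that fit 4.09% of all tested genes were higher and 2.18% lower in O2-PBS than in RA-PBS. With all 12 animals, 1 of the 38, 1 of the 17 and 0 of the 6 were higher in O2-PBS, and 0 were lower. That was beside 0.807% of all genes called in either direction. Against room air, 0 genes were then called in O2-IC100.

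Levels of cell type markers also differed between the groups. Summed over 16 microglia and macrophage markers, the level was 62.5 to 119 CPM in RA-PBS, 122 to 152 CPM in O2-PBS and 141 to 171 CPM in O2-IC100 without animal 10. The PBS groups did not overlap, and 7 of the 16 markers were called higher in O2-PBS (Cx3cr1, C1qa, C1qb, Itgam, Ptprc, Cd68 and Mrc1), 0 lower. That was beside 4.09% of all tested genes called higher. Log2 fold changes of the 16 ran from -0.47 to 2.05, with 14 above 0. With all 12 animals 0 of the 16 were called. RA-PBS animal 2, low for many listed genes, also had the lowest sum, and O2-IC100 animal 9 had the lowest of its group (141 CPM). Other animals did not follow this order. O2-PBS animal 6, low for many listed genes, had 130 CPM, against 122 in animals 5 and 8. O2-IC100 animals 11 and 12 both had 171 CPM, yet were the highest for 33 and 7 genes, leaving aside animal 10. Endothelial markers ran from 203 to 289 CPM in RA-PBS, 433 to 515 in O2-PBS and 316 to 355 in O2-IC100 without animal 10. Animal 10 had 67.7 CPM, the lowest of all. Of the 10 markers, 9 were higher in O2-PBS than in RA-PBS. In O2-IC100, 3 (Eng, Cdh5 and Tie1) were lower than in O2-PBS. With all 12 animals these counts were 3 and 0. Markers of T and NK cells were low, from 3 counts over all 12 libraries for Gzma and 6 for Cd8b1 to 53 for Cd3e, 221 for Cd3d and 749 for Cd8a. The sum of the 10 markers was 2.92 to 6.66 CPM in RA-PBS, 6.62 to 7.93 in O2-PBS and 6.48 to 7.5 in O2-IC100, and Lck was the 1 called of 4 tested (1.56, adjusted p = 0.0708). The part of microglia and endothelium in the rise of the listed genes was not tested. Lens markers were called lower in O2-PBS than in RA-PBS, 17 of 17 tested, though only RA-PBS animals 2, 3 and 4 were high. RA-PBS animal 1, at 8.98 CPM summed, lay within the 4.94 to 111 CPM of O2-PBS. The groups did not overlap for 1 of the 17, and with all 12 animals 0 were called. With the lens level as a covariate 13 listed genes were called, 10 of them among the 12 and Bst2 and B2m not. That was beside 18% of all genes, against 6.27% without it. With the Y-linked level as a covariate 9 were called, beside 5.29% of all genes, and Ifi44, Tap1 and B2m were not.

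**Figure D4:**
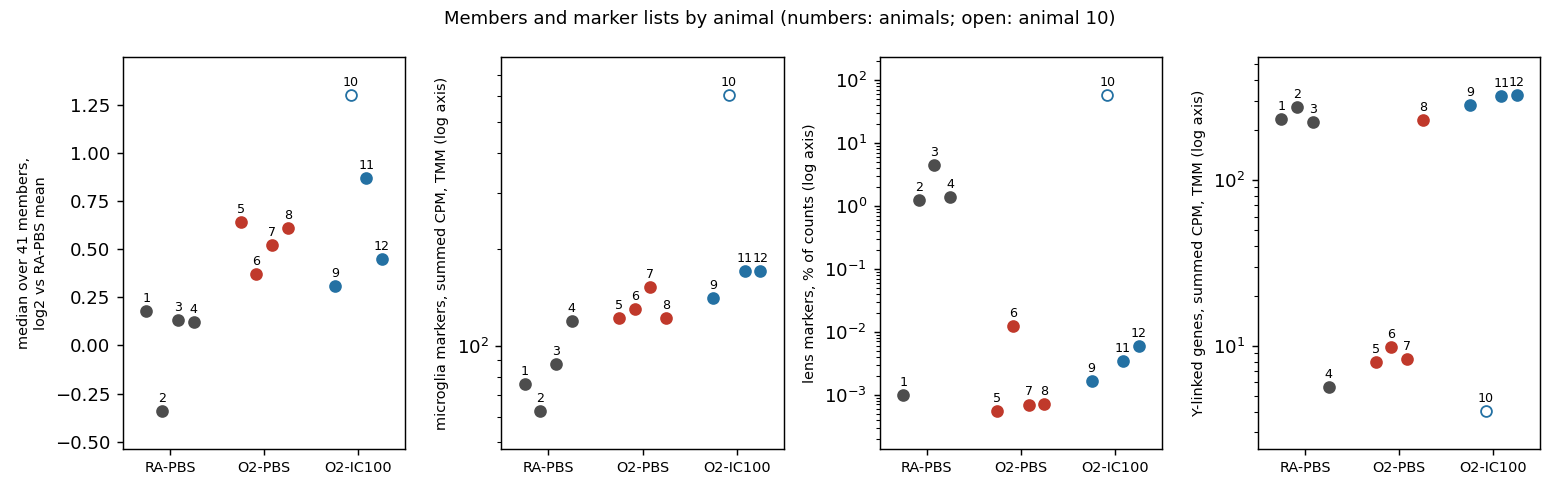
Per animal, the median over the 41 genes of the log2 difference from the RA-PBS mean, the summed CPM of microglia markers, the percent of counts in lens markers and the summed CPM of Y-linked genes (the last 3 on log axes). Medians are 0.37 to 0.64 in O2-PBS and -0.34 to 0.18 in RA-PBS, animal 10 (open) is highest in the first 3 panels, of which the first and second are on the TMM scale, and room air animals 2 to 4 carry lens RNA.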

How the data were processed

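Retinal poly(A) RNA of 12 mice was sequenced. Per the labels, the authors quantified reads with Kallisto and used DESeq2; the study's methods name the mouse build mm_GRCm39_104 and tximport for the gene sums, and versions of the tools are not given in the sources used here. The deposited table holds the authors' estimated counts per Ensembl gene, of which 42.2% are not whole. They were rounded. Symbols were matched for 35374 of 36131 genes.

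Groups were taken from the labels. edgeR 4.0.16 (R 4.3.3; TMM, expression filter, robust quasi-likelihood test, two-sided, Benjamini-Hochberg over all tested genes) was fitted to 3 groups, 11 animals, and again to 12. Fold changes carry a prior count of 0.125. Each animal is taken as 1 replicate, and no 2 libraries of the same group agreed within sampling noise. In simulated data for O2-PBS against RA-PBS (16457 genes), edgeR recovered 98% of 200 changed genes, with 13 false calls among 209. The simulation gave every gene the same spread and held no lens, sex or single-animal differences. Changes were placed only in genes of higher count and were larger than 1.5-fold. The 98% is therefore not the power for listed genes of low count or small change. Alternatives were DESeq2 1.42.0, RLE size factors, no filter, 2 groups only, covariates, a stricter adjusted p and leaving out animals. The 41 genes and all lists were chosen with earlier results of these data known. Values in every animal are given for genes called in any comparison and for the gene of highest mean CPM in each role group; other lists are named only where called, or for interferons and receptors. The genes named with Ifit1, Ifit3, Isg15, Rsad2 and Cd74 values, the promoter stretches, and the chemokine and marker genes singled out were chosen after their values were seen. Promoter sequences, matched by symbol, are RefSeq, GRCm38.p6, another build than that of the counts. The interferon-response and enhancer A motifs were first searched in forms 1 letter longer, and the shorter forms reported, which match more promoters, replaced them after those results were seen. An item of the pathway lists is not reported here.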

Additional observations from a re-analysis of the deposited data

Results flagged for a closer look

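Each of the 41 genes was examined in each group of 4 animals for a highest or lowest animal whose gap to the nearest other, divided by the group's range on the log2 CPM scale, passed Dixon's 95% critical value for 4. This was so in 6 of 123 cases. Genes of an animal moved together, so the cases are not independent and the number is not set against a rate expected by chance. In RA-PBS, Gbp3 was low in animal 2 (1.88 CPM, gap share 0.838). In O2-PBS, animal 6 was low for Rtp4 (1.2 CPM, 0.851) and for H2-K1 (22.4 CPM, 0.932). In O2-IC100, the lens-rich animal 10 was high for Oas2 (6.44 CPM, 0.952) and Trim25 (41.2 CPM, 0.832) and low for Stat2 (25.4 CPM, 0.949), all on the TMM scale; on plain library sizes Trim25 was 13.3 CPM there, below the 24.5 to 42.5 of the other 11, Stat2 8.22 against 39.5 to 61.2, and Oas2 2.09 against at most 1.18.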

How the results depend on the processing

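Irf7 and H2-D1 stayed called between O2-PBS and RA-PBS in all 20 alternative fits, Oasl2, H2-K1, Dtx3l and Psmb9 in 19, Ddx58 in 18, Tap1 in 17, Bst2 in 15, Lgals3bp in 13, B2m in 9 and Ifi44 in 8. No called gene changed direction. The order of the next values is O2-PBS against RA-PBS, O2-IC100 against O2-PBS, O2-IC100 against RA-PBS. The fit gave 1046, 158 and 261 genes and 12, 0 and 4 of the list. With all 12 animals edgeR gave 133, 0 and 0 genes (1174, 2784 and 2183 at an unadjusted p under 0.05) and 2, 0 and 0 of the list, and DESeq2 gave 411 genes for oxygen alone and 7, 0 and 10 of the list. Without animal 10, DESeq2 gave 395 and 559 genes in the IC100 comparisons and 9 of the list against RA-PBS. With only the groups compared there were 789 and 18 genes in the IC100 comparisons, with 1 (Oas2, higher) and 0 of the list. The Y-linked covariate gave 62 and 428 genes there, and adjusted p under 0.05 gave 53 and 91, with 1 of the list against RA-PBS. The planned fit without RA-PBS animal 1, counted once among the 20, gave 282 genes between O2-IC100 and O2-PBS; it had been planned as a lens-bearing animal, but lens RNA is in animals 2, 3 and 4. Chosen after seeing the data, a lens covariate gave 2997, 427 and 1369 genes, and leaving out RA-PBS animals 2, 3 and 4 gave 4246, 777 and 2996 genes, with 12 of the list between O2-IC100 and RA-PBS. Leaving out 1 animal at a time gave 784 to 1343, 0 to 432 and 21 to 925 genes and 8 to 13, 0 to 0 and 0 to 16 of the list. The lowest and highest list counts in the first comparison came without O2-PBS animal 8 and without RA-PBS animal 1. The cause of these shifts was not tested. Genes at a few counts per library, such as Oas1a, Psmb9 and Rsad2, are limited by depth, and sex and lens RNA are not balanced over the groups. No paired analysis was possible because the labels number the animals 1 to 12 with no number shared between groups.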
